A study of Homo sapiens with 6 samples.

Results

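The circadian clock genes examined here are *PER1*, *PER2*, *PER3*, *CRY1*, *CRY2*, *BHLHE40*, *BHLHE41*, *NR1D1*, *NR1D2* and *DBP*, 10 of the 58825 genes in the deposited table. Of these, 9 were found by their symbol. *PER1* carried the clone name AC129492 in the symbol column and was taken by its Ensembl identifier, ENSG00000179094. The libraries came from MDA-MB-231, a human cell line of triple-negative breast cancer, kept for 24 h in disulfiram with copper (DSF/Cu, 0.2 µM) or in the vehicle DMSO. There were 3 libraries per group, and the cells of 3 wells went into each. Disulfiram inhibits aldehyde dehydrogenases, and its metabolite binds copper. No library had disulfiram or copper alone, so the effects of either one cannot be told apart. The labels do not state whether replicates were cultured separately, so every p-value here reflects only library-to-library spread, possibly of technical origin.

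The mammalian clock is a feedback loop of transcription. CLOCK or its paralog NPAS2 pairs with BMAL1, encoded by *ARNTL*, binds E-boxes (CACGTG) and drives the genes of its own repressors. PER and CRY proteins form a complex that blocks the activators, and BHLHE40 and BHLHE41 (also called DEC1 and DEC2) compete for E-boxes. The nuclear receptors NR1D1 and NR1D2 (REV-ERBα and REV-ERBβ) repress *ARNTL*, which ROR receptors activate. DBP activates D-box sites, where NFIL3 opposes it. Clock transcripts cycle over the day, and *PER1* and *BHLHE40* are also known to respond quickly to hormones, hypoxia and stress. All libraries were taken at 24 h, so a change in level and a shift in the phase of a rhythm cannot be told apart.

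Marker genes were read as a check of the cell line. The mesenchymal filament gene *VIM* was high in both groups and fell after DSF/Cu (log2 change -0.27 ± 0.07, edgeR adjusted p = 0.0208), at 2734 ± 179 CPM after DSF/Cu and 3297 ± 213 CPM in DMSO (SD, n = 3 each), and the hormone receptor genes *ESR1* and *PGR* had at most 1.09 CPM in any library. *CD44*, listed with *VIM*, averaged 338 ± 18.2 CPM after DSF/Cu and 294 ± 23.1 CPM in DMSO. It lay on the other side of 0 from *VIM* and was not called (0.20 ± 0.07, edgeR adjusted p = 0.0762). *ERBB2*, which encodes HER2, fell to 39.7 ± 3.33 CPM after DSF/Cu, against 69.4 ± 4.69 CPM in DMSO (edgeR adjusted p = 0.000937). The epithelial gene *EPCAM* fell to 4.49 ± 0.72 CPM after DSF/Cu, against 7.30 ± 1.45 CPM in DMSO (edgeR adjusted p = 0.0376). A second epithelial gene, *CDH1*, was nearly absent, with 0, 4 and 0 counts after DSF/Cu and 0, 0 and 4 in DMSO. The stromal and endothelial markers *DCN*, *LUM* and *CDH5* had no count in any library. A second endothelial marker, *PECAM1*, had 43, 56 and 29 counts after DSF/Cu, against 20, 38 and 19 counts in DMSO, and was not called (1.03 ± 0.46, edgeR adjusted p = 0.132). The leukocyte gene *PTPRC* had 12, 0 and 2 counts after DSF/Cu and 0 in each DMSO library. The part of these markers in the clock gene results was not tested. Library totals ran from 55563223 to 70883177 counts. CPM here is the count brought to a common library size after TMM scaling, which evens out differences in composition between libraries.

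E-box matches of 4 of the clock genes are shown because the E-box is the kind of site that the activators bind, and because these genes did not all change alike. The 250 bases before each RefSeq start (GRCh38.p14) were searched on both strands. E-box letters, and for *NR1D2* also a D-box (TTATGTAA or TTACGTAA, here on the other strand), are in capitals. The *PER1* stretch is chr17:8152555-8152644 on the minus strand and the *NR1D2* stretch chr3:23945917-23946031 on the plus strand, and both lie inside the annotated gene but outside its exons in GENCODE 29. The *BHLHE40* stretch, chr3:4979187-4979209 on the plus strand, and the *BHLHE41* stretch, chr12:26125068-26125097 on the minus strand, lie within an exon of a GENCODE transcript.
PER1: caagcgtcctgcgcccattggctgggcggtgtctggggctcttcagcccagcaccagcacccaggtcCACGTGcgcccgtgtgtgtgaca
NR1D2: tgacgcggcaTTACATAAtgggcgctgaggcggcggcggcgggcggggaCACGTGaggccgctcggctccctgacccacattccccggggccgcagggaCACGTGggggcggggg
BHLHE40: tccaaCACGTGagactcatgtga
BHLHE41: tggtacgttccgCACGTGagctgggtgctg

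All 10 genes had a RefSeq window, 13 windows in all. An E-box was found in 4 of the 10 genes, and 6.34% of all 35116 windows, of 27305 symbols, held one. All shares given here are per window. None was computed per gene, and a gene with more windows has more chances of a match. The D-box was found in *NR1D2* and *PER3* (0.94% of all windows). A cAMP response element (TGACGTCA, 1.65% of windows) and a heat shock element core (GAANNTTC, 5.78%) were found in none of the 10. The core of the metal response element (TGCACNC or TGCGCNC, 24.8% of windows) was found in *PER1*, *PER3* and *NR1D1*, and one of its matches in *PER1* overlaps the end of the E-box shown. These are matches of letters in short windows and say nothing of binding.

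After DSF/Cu, 5 of the 10 clock genes rose and none fell, at a Benjamini-Hochberg adjusted p under 0.05 in edgeR's quasi-likelihood test over all 18229 genes that passed the count filter. All 10 genes passed that filter. The risers were *BHLHE40*, *NR1D1*, *PER1*, *CRY1* and *NR1D2*, by 3.04-fold to 1.48-fold. All encode repressors of the loop, as do 9 of the 10 genes. Among all genes tested, 18.5% were called higher and 16.8% lower (12.9% and 26.6% with scaling by total counts), against 5 and 0 of the 10. The members' median log2 change was 0.73, where that of all genes tested was 0.00. On TMM-scaled CPM the groups did not overlap for 7 of the 10, 6 with DSF/Cu above and 1 below. Among all genes tested the groups did not overlap, on the same scale, for 51.2%, with DSF/Cu above for 26% and below for 25.2%. In FPKM as deposited the groups of *BHLHE41* did overlap, at 1.13 to 1.17 after DSF/Cu and 0.846 to 1.25 in DMSO. In bulk RNA, a change in every cell and a change in part of the cells cannot be told apart.

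**Figure D1:**
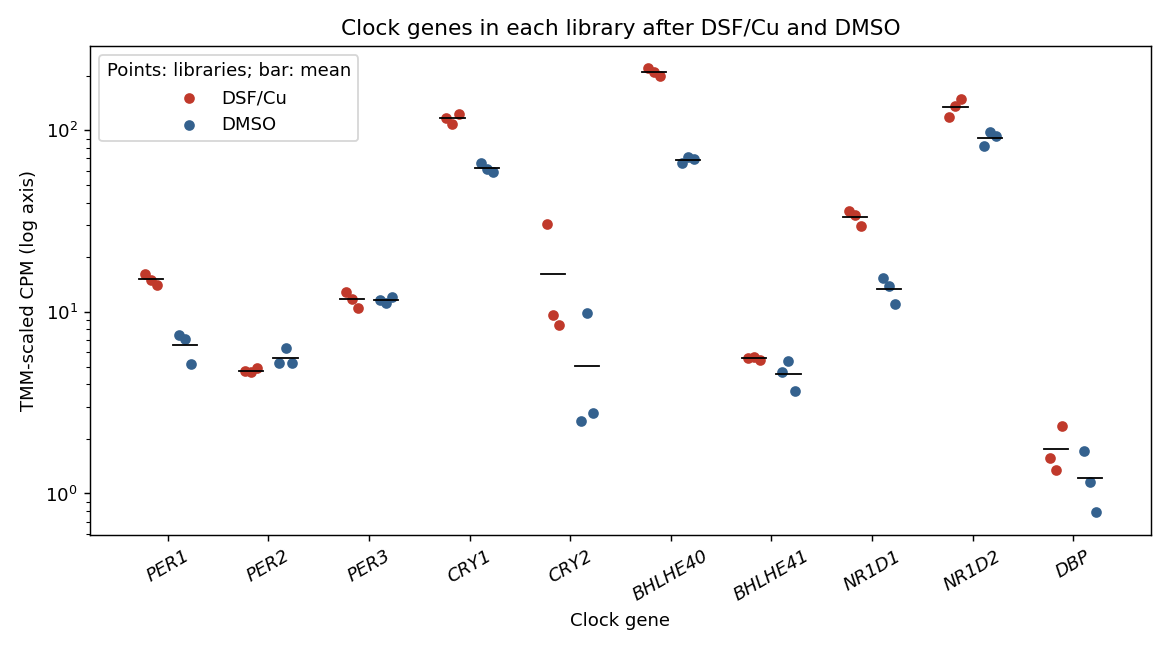
TMM-scaled CPM (log axis) of the 10 clock genes, with 1 point per library and a bar at the mean, DSF/Cu in red left of DMSO in blue. The DSF/Cu libraries lie clear above DMSO for *PER1*, *CRY1*, *BHLHE40*, *NR1D1* and *NR1D2*, while 1 library of each group stands high for *CRY2*.

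*BHLHE40* (ENSG00000134107, chr3:4979116-4985323, plus strand), the E-box repressor DEC1, had 219.9, 209 and 199.9 CPM in the DSF/Cu libraries, against 66.0, 71.3 and 69.1 CPM in the DMSO libraries. Every DSF/Cu library was far above every DMSO library, and the spread within each group was small. The log2 change was 1.61 ± 0.06 (SE, edgeR adjusted p = 2.53e-05). Its paralog *BHLHE41* (ENSG00000123095, chr12:26120030-26125037, minus strand), DEC2, had 5.55, 5.63 and 5.47 CPM after DSF/Cu, against 4.64, 5.39 and 3.65 CPM in DMSO. The groups just missed each other in CPM but overlapped in FPKM, and the change of 0.28 ± 0.17 was not called (edgeR adjusted p = 0.261). *SSPN*, on the opposite strand, shares 162 of the 3948 exon bases of *BHLHE41*. It had 45, 48 and 93 counts after DSF/Cu, against 83, 86 and 16 counts in DMSO, and was not called (edgeR adjusted p = 0.699).

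*NR1D1* (ENSG00000126368, chr17:40092793-40100589, minus strand), which encodes REV-ERBα, had 36.0, 34.1 and 29.9 CPM after DSF/Cu, against 15.3, 13.9 and 11.0 CPM in DMSO. The groups were well apart, with a log2 change of 1.31 ± 0.14 (edgeR adjusted p = 0.000937). The 3′ end of *NR1D1* shares 263 of its 2772 exon bases with *THRA* on the opposite strand, and without a stated strand setting reads there cannot be assigned. *THRA*, the thyroid hormone receptor alpha gene, was not called (log2 change 0.03 ± 0.13, edgeR adjusted p = 0.879). *NR1D2* (ENSG00000174738, chr3:23945286-23980617, plus strand), which encodes REV-ERBβ, had 118, 136 and 149 CPM after DSF/Cu, against 81.8, 98.0 and 93.0 CPM in DMSO. All 3 treated libraries were above all 3 vehicle libraries by a smaller step, a log2 change of 0.56 ± 0.11 (edgeR adjusted p = 0.00776). *NKIRAS1*, which overlaps the start of *NR1D2* on the opposite strand and shares no exon base with it, also rose (0.68 ± 0.12, edgeR adjusted p = 0.00558).

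The period genes split. *PER1* (chr17:8140472-8156405, minus strand) had 16.1, 15.1 and 14.1 CPM after DSF/Cu, against 7.46, 7.13 and 5.16 CPM in DMSO. The treated libraries were all above the vehicle libraries, with a log2 change of 1.20 ± 0.17 (edgeR adjusted p = 0.00227). A second gene, AC129492.3, overlaps *PER1* on the same strand by 30 exon bases and held 6 to 36 counts per library. *PER2* (ENSG00000132326, chr2:238244044-238290102, minus strand) had 4.72, 4.64 and 4.90 CPM after DSF/Cu, against 5.23, 6.31 and 5.25 CPM in DMSO. It was the member whose DSF/Cu libraries all lay below DMSO, but the change of -0.24 ± 0.14 was not called (edgeR adjusted p = 0.241). With total-count scaling the change was -0.421, just short of a call (edgeR adjusted p = 0.0521). AC012485.1, a non-coding gene on the opposite strand that shares 188 of 6877 exon bases with *PER2*, had 75, 46 and 27 counts after DSF/Cu and 0 in each DMSO library. *PER3* (ENSG00000049246, chr1:7784320-7845177, plus strand) had 12.9, 11.7 and 10.5 CPM after DSF/Cu, against 11.6, 11.2 and 12.1 CPM in DMSO. Its groups overlapped fully (0.01 ± 0.11, edgeR adjusted p = 0.959), and the sign of this value turned under total-count scaling (-0.178), where the median of all genes was -0.182. On the opposite strand *UTS2* shares 868 and Z98884.1 shares 482 of the 8099 exon bases of *PER3*. *UTS2* had 2, 16 and 5 counts after DSF/Cu and 0 in each DMSO library, and Z98884.1 was not called (edgeR adjusted p = 0.877).

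*CRY1* (ENSG00000008405, chr12:106991364-107093549, minus strand), the partner of PER in repression, had 117, 109 and 123 CPM after DSF/Cu, against 65.9, 61.5 and 58.8 CPM in DMSO. The treated libraries were nearly double the vehicle libraries without overlap, a log2 change of 0.91 ± 0.07 (edgeR adjusted p = 0.000316). *CRY2* (ENSG00000121671, chr11:45847118-45883247, plus strand) was erratic, with 30.3, 9.59 and 8.51 CPM after DSF/Cu, against 2.51, 9.88 and 2.77 CPM in DMSO. DSF/Cu replicate 1 and DMSO replicate 2 each stood over 3-fold above the other libraries of their group. The change of 1.68 ± 0.72 was not called (edgeR adjusted p = 0.121). It was 2.61 and called without DMSO replicate 2 (adjusted p = 0.037), which makes 6 risers of 10, and 0.85 without DSF/Cu replicate 1 (adjusted p = 0.38). No other annotated gene overlaps *CRY2* in GENCODE 29.

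*DBP* (ENSG00000105516, chr19:48630030-48637438, minus strand), the D-box activator and a direct output of the loop, was the lowest of the 10, with 52 to 131 counts per library. It had 1.58, 1.35 and 2.35 CPM after DSF/Cu, against 1.72, 1.16 and 0.787 CPM in DMSO. The groups overlapped, and the change of 0.52 ± 0.37 was not called (edgeR adjusted p = 0.325). *DBP* shares 661 of 6544 exon bases with *SPHK2* on the opposite strand, which fell (-0.40 ± 0.11, edgeR adjusted p = 0.0334).

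**Figure D2:**
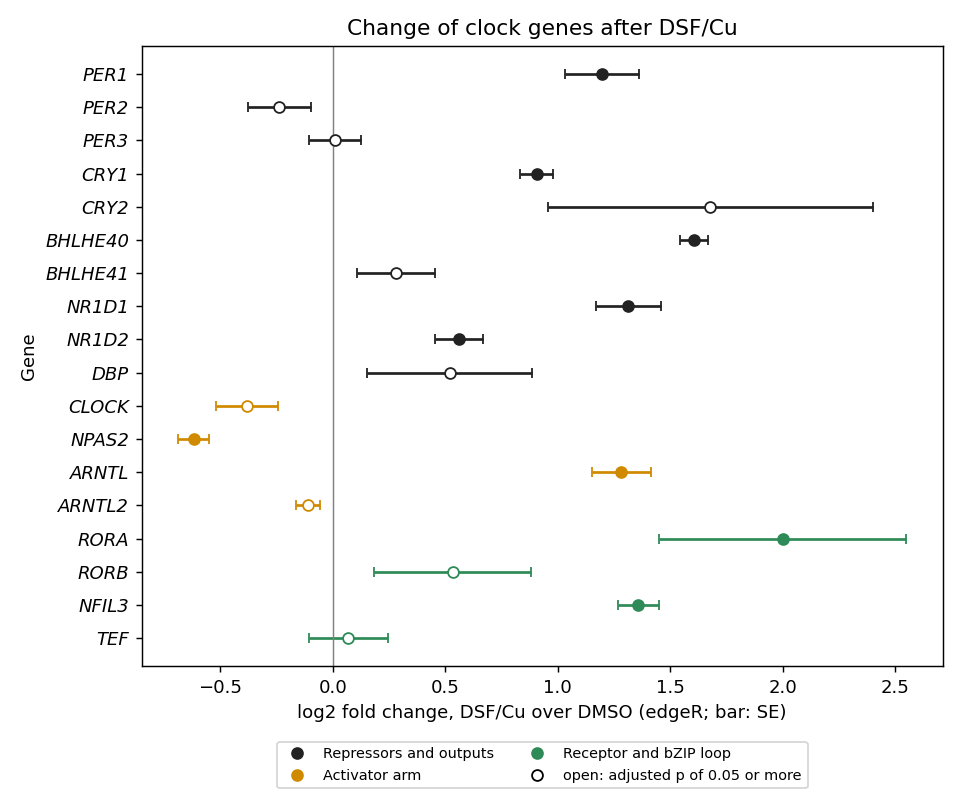
Log2 fold change of DSF/Cu over DMSO with its SE (edgeR) for the 10 clock genes, the activator arm and the receptor and bZIP loop, filled where the adjusted p is under 0.05. Of the 10, 5 filled points lie right of 0 and none left of it, and *ARNTL* and *NPAS2* of the activator arm lie on opposite sides.

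Levels between genes were compared per length, in FPKM as deposited. *BHLHE40* led in both groups, with 43.7 ± 1.31 FPKM after DSF/Cu and 16.2 ± 0.508 FPKM in DMSO (SD, n = 3 each). After DSF/Cu, *CRY1* (19.5 ± 1.34) and *NR1D2* (18.6 ± 2.45) followed with ranges that overlapped, then *NR1D1* at 10.1 ± 0.79. In DMSO the order was *NR1D2* (14.1 ± 1.20), *CRY1* (11.7 ± 0.734) and *NR1D1* (4.59 ± 0.763), each apart from the next. The other 6 genes lay at 0.212 to 2.06 FPKM after DSF/Cu and 0.165 to 1.29 FPKM in DMSO, with *DBP* last in both. Among them *PER1* took sixth place after DSF/Cu, clear of *BHLHE41* below it but not of *CRY2* above it. In DMSO it was seventh, and its range overlapped those of *BHLHE41* and *PER2* on either side.

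Paralogs were compared by the log2 ratio of their counts within each library, which does not depend on library scaling. The *PER1* to *PER2* ratio was 1.77, 1.70 and 1.53 after DSF/Cu, against 0.512, 0.176 and -0.0251 in DMSO, a 2.72-fold shift. The *BHLHE40* to *BHLHE41* ratio averaged 5.24 ± 0.0622 after DSF/Cu and 3.93 ± 0.273 in DMSO (SD, n = 3 each), a 2.47-fold shift. For *NR1D1* to *NR1D2* the means were -2.01 ± 0.30 after DSF/Cu and -2.77 ± 0.331 in DMSO, a 1.70-fold shift. In these 3 pairs the groups did not overlap, so the better induced paralog gained on the other in every library. Each had an exact two-sided permutation p of 0.1 (n = 3 each), the smallest that 3 against 3 allows, and an adjusted p of 0.167 over the 5 pairs tested, so none passed 0.05. The groups overlapped for *PER2* to *PER3* (difference -0.24, exact permutation p = 0.3, adjusted 0.375) and for *CRY1* to *CRY2* (-0.82, exact permutation p = 0.5, adjusted 0.5).

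**Figure D3:**
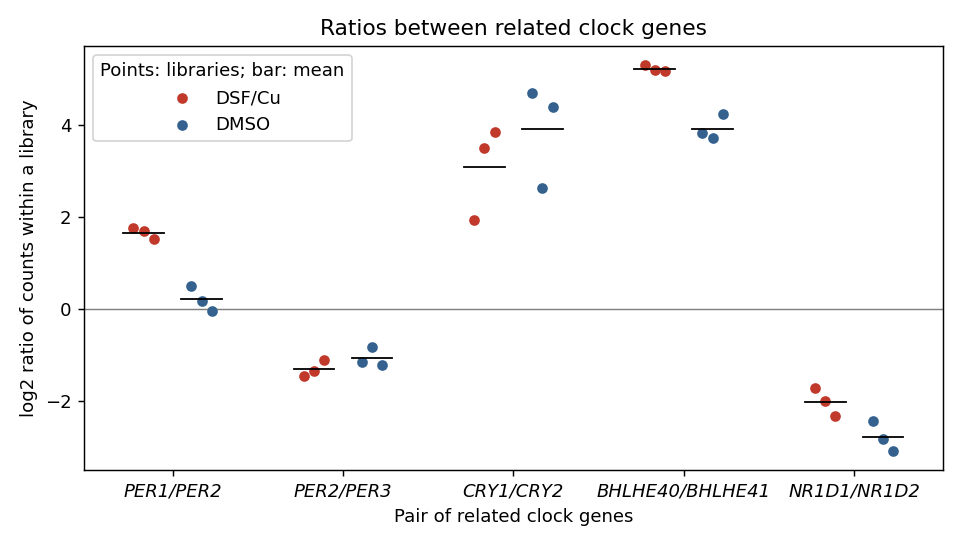
Log2 ratio of the counts of 2 related clock genes within each library, with 1 point per library and a bar at the mean, DSF/Cu in red left of DMSO in blue. The ratios of *PER1* to *PER2*, *BHLHE40* to *BHLHE41* and *NR1D1* to *NR1D2* lie higher in every DSF/Cu library than in any DMSO library.

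The activator arm moved in both directions. *ARNTL*, which encodes BMAL1, had 17.3, 15.8 and 14.5 CPM after DSF/Cu, against 7.11, 5.76 and 6.69 CPM in DMSO, and rose by 1.28 ± 0.13 (log2, edgeR adjusted p = 0.000728). *NPAS2* had 35.3, 33.5 and 35.1 CPM after DSF/Cu, against 56.2, 52.8 and 50.3 CPM in DMSO, and fell by 0.62 ± 0.07 (edgeR adjusted p = 0.00103). For each of these genes the groups were well apart. *CLOCK* had 32.2, 44.1 and 44.0 CPM after DSF/Cu, against 56.5, 48.3 and 51.7 CPM in DMSO. All DSF/Cu libraries lay below DMSO, yet the change of -0.38 ± 0.14 was not called (edgeR adjusted p = 0.0763). It was called lower in 4 alternatives, with total-count scaling, DESeq2 and both fits to FPKM (adjusted p from 0.0156 to 0.0353). *ARNTL2*, the *ARNTL* paralog, averaged 149 ± 4.60 CPM after DSF/Cu and 161 ± 4.98 CPM in DMSO (SD, n = 3 each) and was not called (-0.11 ± 0.05, edgeR adjusted p = 0.154). It was called lower with total-count scaling and both fits to FPKM (adjusted p from 0.00744 to 0.00853).

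Of 6 genes in the receptor and bZIP loop, 4 passed the count filter, 2 rose and none fell. The shares over all genes tested were 18.5% higher and 16.8% lower. *NFIL3*, the D-box repressor, had 46.3, 46.4 and 44.7 CPM after DSF/Cu, against 16.0, 18.3 and 19.3 CPM in DMSO, and rose by 1.36 ± 0.09 (edgeR adjusted p = 0.000169). Like *ARNTL*, it is known as a gene that the REV-ERB receptors repress, and both rose in the same libraries as *NR1D1*. REV-ERB protein and activity were not measured, and a link between these changes was not tested. *RORA* was barely detected, with 22, 27 and 21 counts after DSF/Cu, against 12, 6 and 4 counts in DMSO. With DMSO counts this low, it passed the count filter through the DSF/Cu group, where it was high. Its place among the 2 risers here, and the 11 of all other clock genes, is therefore no separate support. Its call (2.00 ± 0.55, edgeR adjusted p = 0.0305) was lost without DSF/Cu replicates 1, 2 or 3 or DMSO replicates 2 or 3 (adjusted p from 0.0733 to 0.103). It was also lost with no count filter, a replicate block and both fits to FPKM (adjusted p from 0.0671 to 0.546).

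Of 21 genes that act on clock proteins or with them, 20 were tested, 8 rose and 6 fell. Among all genes tested, 18.5% were called higher and 16.8% lower. Most rises were small. The casein kinase 1 genes *CSNK1D* and *CSNK1A1*, whose products phosphorylate PER, rose by 0.44 ± 0.06 and 0.44 ± 0.05 (edgeR adjusted p = 0.0017 and 0.00126). The deubiquitinase gene *USP2* rose by 1.90 ± 0.39 at 1.90 ± 0.59 CPM after DSF/Cu and 0.51 ± 0.168 CPM in DMSO (edgeR adjusted p = 0.0105). *TIMELESS*, better known in replication fork protection, fell by 0.74 ± 0.09, and the histone methyltransferase subunit gene *WDR5* fell by 0.48 ± 0.05. *PRKAA1*, a catalytic subunit of the kinase AMPK that in mouse cells marks CRY1 for degradation, fell by 0.38 ± 0.07. The casein kinase 2 gene *CSNK2A1* (0.34 ± 0.05) and the kinase gene *GSK3B* (0.37 ± 0.06) rose, but *CSNK2A1* was not called in the fits to FPKM, nor *GSK3B* in those or with total-count scaling.

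The other calls in that list depended on 1 or more single libraries, and some also on other settings. *CSNK2A2*, *FBXW11* and *SIRT1* were not called with total-count scaling, no count filter, a replicate block or the fits to FPKM. Their adjusted p there ran from 0.0984 to 0.969, 0.0804 to 0.681 and 0.0568 to 0.0989. *PRKAA2* was not called with the replicate block (edgeR adjusted p = 0.0508). *CSNK2A2* (0.17 ± 0.05) lost its call without any library but DSF/Cu replicate 3 (adjusted p from 0.092 to 0.117) and lay at -0.0111 with total-count scaling. *FBXW11* (0.23 ± 0.06), a ubiquitin ligase subunit gene, lost it without any library but DMSO replicate 1 (0.0511 to 0.105). *SIRT1* (0.64 ± 0.19), a deacetylase gene, lost it without any DSF/Cu library or DMSO replicate 3 (0.0789 to 0.103). *TIPIN* (-0.38 ± 0.09), the partner of *TIMELESS*, lost it without DSF/Cu replicates 1 or 3 or DMSO replicates 2 or 3 (0.0502 to 0.0656). *PRKAA2* (-0.39 ± 0.11) lost it without any library but DSF/Cu replicate 3 (0.0519 to 0.0992), and *SFPQ* (-0.20 ± 0.04) without DSF/Cu replicate 2 (0.053). Neither of the output genes examined, *WEE1* and *NAMPT*, was called (0.39 ± 0.18 and -0.04 ± 0.07, edgeR adjusted p = 0.137 and 0.748).

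Over the 33 other clock genes together, 30 were tested, 11 rose and 7 fell, with a median log2 change of 0.11. With total-count scaling 7 rose and 9 fell, where 12.9% of all genes tested were called higher and 26.6% lower. Of the 18 calls, 9 were made in every alternative analysis, 5 higher and 4 lower. A gene was called in either direction for 60% of this list, against 50% of the 10 members and 35.2% of all genes tested. Members and lists were chosen with earlier results of these data known, so these shares are description only.

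Genes of pathways that feed into the clock were also counted. Of 18 such genes 17 were tested, 9 rose and 2 fell (8 and 4 with total-count scaling), with a median log2 change of 0.51. Over all genes tested the shares were 18.5% higher and 16.8% lower, or 12.9% and 26.6% with total-count scaling. Glucocorticoid signalling is a known inducer of *PER1*. Its receptor gene *NR3C1* rose by 0.51 ± 0.08, and among its target genes *TSC22D3* rose by 1.84 ± 0.15, *SGK1* by 1.48 ± 0.21, *KLF9* by 0.67 ± 0.12 and *ERRFI1* by 0.58 ± 0.05. *FKBP5*, another target, went the other way, with 80.0, 83.8 and 87.4 CPM after DSF/Cu, against 121.6, 123.8 and 120.5 CPM in DMSO (-0.54 ± 0.06, edgeR adjusted p = 0.000711). The listed target *ZBTB16* had 0, 4 and 0 counts after DSF/Cu and 0 in each DMSO library, and did not pass the filter. The tested targets moved in both directions, and a part of glucocorticoid signalling in the clock gene changes was not tested.

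The cAMP pathway, which also reaches *PER1* through CREB, held 4 risers among 9 listed genes, where 18.5% of all genes tested were called higher. *SIK1*, an inducible kinase that restrains CREB coactivators, rose by 1.20 ± 0.18, *CREM* by 0.79 ± 0.11, the coactivator gene *CRTC2* by 0.74 ± 0.08 and *ATF1* by 0.35 ± 0.08. *ATF1* was not called with total-count scaling or in the fits to FPKM (adjusted p from 0.0683 to 0.131). The other listed genes of the pathway were not called. *CREB1* (1.36 ± 0.46, edgeR adjusted p = 0.0603) had 56.8, 16.0 and 59.4 CPM after DSF/Cu, against 19.1, 15.1 and 17.2 CPM in DMSO. *SIK3* lay at 0.22 ± 0.08 and *CRTC1* at 0.16 ± 0.13. *SIK2* (-0.16 ± 0.08) and *CRTC3* (-0.33 ± 0.11, edgeR adjusted p = 0.0516) lay below 0. *HIF1A*, the hypoxia factor known to induce *BHLHE40*, fell by 0.28 ± 0.06 (edgeR adjusted p = 0.00885) while *BHLHE40* rose. These are transcript levels, and the activity of the factors was not measured.

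**Figure D4:**
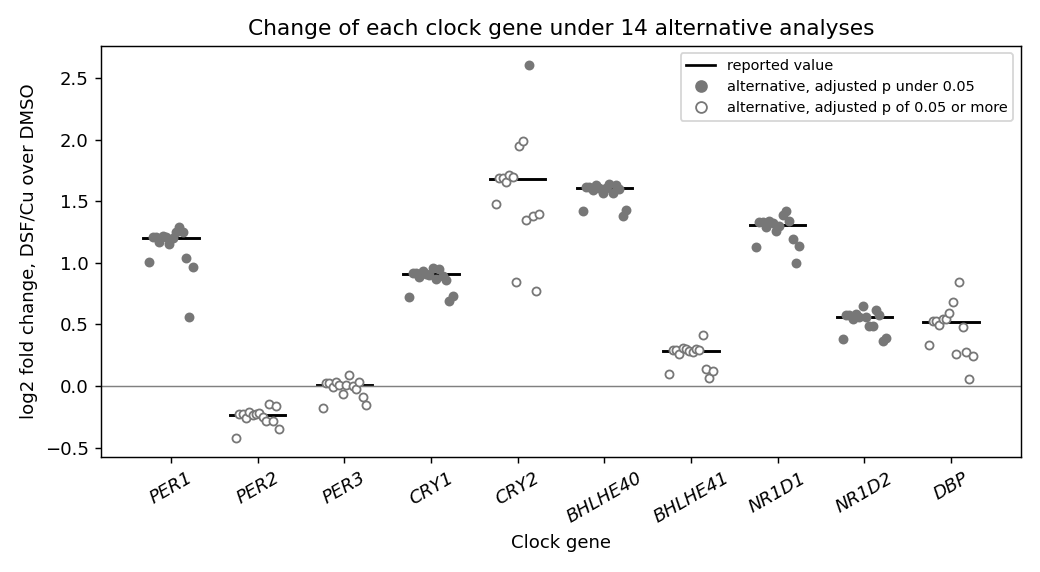
Log2 fold change of each clock gene as reported (black line) and under 14 alternative analyses (points, filled where the adjusted p is under 0.05). All 14 points are filled for *PER1*, *CRY1*, *BHLHE40*, *NR1D1* and *NR1D2*, and 1 is filled for *CRY2*.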

How the data were processed

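Poly(A) RNA of 3 DSF/Cu and 3 DMSO samples was sequenced as paired-end libraries. The DMSO samples are the only vehicle group in the labels, and the Control columns were read as theirs. The deposited count columns hold whole-number counts per gene, per the file headers. The deposited FPKM columns, per the file headers, hold values normalized by gene length and sequenced fragments. The submitters' processing notes list StringTie 1.3.0, HISAT2 2.0 and Bowtie 0.12.2, with no role for any, and the mouse build mm8. The gene identifiers are human (58552 of 58825 occur in GENCODE 29), so GRCh38 coordinates are used. For the counter and its strand setting, the sources used here give nothing. Library totals of 55563223 to 70883177 counts set the precision.

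Genes passing filterByExpr (18229) were scaled by TMM and tested in edgeR 4.0.16 (quasi-likelihood, R 4.3.3), with Benjamini-Hochberg adjustment over all of them. Tests are two-sided, and the SE is the absolute log2 change over the square root of F. An unadjusted p under 0.05 was reached by 8151 genes, among them 5 of the 10. Levels are TMM-scaled CPM. Paralog ratios used counts plus 0.5. The members and lists were chosen with earlier results of these data known. Named genes are all members, called genes of the lists, the activator arm and most genes that overlap a member. *WEE1*, *NAMPT*, *ZBTB16* and the uncalled genes of the cAMP pathway were added after their values were seen. Alternatives were total-count and RLE scaling, DESeq2 1.42.0, other count filters, a replicate block, leaving out each library, and limma 3.58.1 on log2(FPKM + 1) or log2(FPKM + 0.1). The fits were tested on simulated data. Replicates of a group differed beyond sampling noise (chi-square per degree of freedom 49.8 to 63.0), so none is a copy.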

Additional observations from a re-analysis of the deposited data

How the results depend on the processing

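The counts of 5 members higher and 0 lower were the same in 13 of 14 alternatives, and without DMSO replicate 2 they were 6 and 0. Among single members, *CRY2* ran from 0.77 on log2(FPKM + 1) to 2.61 without DMSO replicate 2, and was 0.847 without DSF/Cu replicate 1. The sign of *PER3*, never called, turned with total-count scaling (-0.178), no filter (-0.0109), limma on log2(FPKM + 1) (-0.0919) and on log2(FPKM + 0.1) (-0.156), and without DSF/Cu replicate 1 or DMSO replicate 2 (-0.063 to 0.0867 over the 6 left-out libraries). Of the other uncalled members, *DBP* ran from 0.0565 on log2(FPKM + 1) to 0.844 without DMSO replicate 1. It was 0.263 without DSF/Cu replicate 3 and 0.28 without DMSO replicate 3. *BHLHE41* ran from 0.0655 on log2(FPKM + 1) to 0.415 without DMSO replicate 2. It was 0.0977 with total-count scaling and 0.141 without DMSO replicate 3. *PER2* ran from -0.421 with total-count scaling (edgeR adjusted p = 0.0521) to -0.147 without DMSO replicate 2. The members' median log2 change was 0.55 with total-count scaling, 0.465 and 0.559 in the 2 fits to FPKM, and 0.678 to 0.896 with a library left out; total-count scaling moved the median of all genes to -0.182. *PER1* lay at 1.01 with total-count scaling, 0.964 on log2(FPKM + 0.1) and 0.564 on log2(FPKM + 1). The other clock genes called higher numbered 7 with total-count scaling, no filter and the replicate block, 5 in both fits to FPKM, and 7 to 10 with a library left out. The clock input genes called lower numbered 4 with total-count scaling and in both fits to FPKM, where all genes called lower numbered 4856, 4791 (log2(FPKM + 1)) and 4727 (log2(FPKM + 0.1)). Whether the replicate numbers pair the samples cannot be told from 3 libraries per group. The same-number correlations were small (0.0252, 0.038 and 0.0535), although each DSF/Cu library correlated best with its own number. All genes called numbered 2692 higher and 2451 lower with the block. *CSNK2A2* reversed to -0.0111 with total-count scaling.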
